A study of Mus musculus with 8 samples.

Results

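The oligodendrocyte lineage was followed through 9 genes, Olig1, Olig2, Sox10, Pdgfra, Cspg4, Gpr17, Enpp6, Mbp and Cnp, in subplate tissue of newborn mice with a deletion of Lhx2, which encodes a LIM-homeodomain transcription factor. They were chosen by name as markers of successive stages of the lineage, and all 9 were found among the 55202 genes of the deposited count tables and passed the filter on low counts. The presumptive subplate, a transient layer at the bottom of the cortical plate, was cut out of somatosensory cortex sections at postnatal day 0, in mice of mixed strain, with 2 brains pooled per library. The 8 libraries formed 4 groups of 2: wild-type controls of the Emx1Cre line, Emx1Cre11.5;Lhx2lox/lox mutants, wild-type controls of the NexCre line and NexCre;Lhx2lox/lox mutants. Whether the controls carried the floxed or the Cre alleles is not given beyond the label of wild type. Separate pools are taken as separate samples, and every group below has n = 2 pools.

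Oligodendrocytes, the myelin-forming glia of the brain, develop from migrating precursors that divide in response to platelet-derived growth factor, then become committed premyelinating cells and finally make myelin. Precursors of the mouse cortex arise in successive waves, the earlier ones from ventral forebrain and a later one from dorsal progenitors that express Emx1. Emx1Cre recombines in dorsal progenitors and so in the neurons, astrocytes and oligodendrocyte lineage cells that descend from them, while cells that migrated in from ventral forebrain keep Lhx2. NexCre is driven from the Neurod6 locus in postmitotic excitatory neurons, so that glia largely keep Lhx2.

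The libraries held 31.2 to 64.4 M reads. Lhx2 itself measured 90.4 and 91.5 CPM (reads per 1 M, scaled by TMM) for Emx1Cre controls against 64.0 and 42.7 CPM for Emx1Cre mutants (log2 fold change −0.77 ± 0.20, adjusted p = 0.273 in edgeR's quasi-likelihood test). In the NexCre line it measured 182 and 236 CPM for controls against 227 and 245 CPM for the libraries labelled mutant, so its whole-gene level did not go down with that label. Counts per gene cannot show the loss of single exons. Excitatory neuron markers were present in every library, with a summed level of 1316 to 2125 CPM over 6 genes. The 6 subplate neuron markers summed to 323 and 354 CPM in the 2 Emx1Cre controls against 259 and 261 CPM in the 2 Emx1Cre mutants. In the NexCre line their sums were only 62.9 to 67.5 CPM. Small RNA took 0.0557% to 0.576% of Emx1Cre reads and 3.1% to 3.95% of NexCre reads. Histone genes took 0.0173% to 0.0207% of Emx1Cre reads and 0.746% to 0.908% of NexCre reads. Mutants were therefore compared with controls within each line.

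Promoter sequence was at hand for 5 of the 9 genes (RefSeq, GRCm38.p6, 250 bases before to 50 bases after the annotated start). Olig2 and Enpp6 are shown because they had the smallest and the largest difference between the lines described below, and their promoters differ in base composition. Capitals mark CG dinucleotides, and both are read 5′ to 3′ on the plus strand.
Olig2, chr16:91225300-91225599: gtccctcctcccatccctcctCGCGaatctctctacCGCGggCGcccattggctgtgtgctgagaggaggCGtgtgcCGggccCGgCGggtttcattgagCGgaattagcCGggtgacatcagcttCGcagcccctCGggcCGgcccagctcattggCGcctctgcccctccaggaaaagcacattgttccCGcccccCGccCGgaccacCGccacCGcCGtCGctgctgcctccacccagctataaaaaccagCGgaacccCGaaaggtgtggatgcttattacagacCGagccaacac
Enpp6, chr8:46986637-46986936: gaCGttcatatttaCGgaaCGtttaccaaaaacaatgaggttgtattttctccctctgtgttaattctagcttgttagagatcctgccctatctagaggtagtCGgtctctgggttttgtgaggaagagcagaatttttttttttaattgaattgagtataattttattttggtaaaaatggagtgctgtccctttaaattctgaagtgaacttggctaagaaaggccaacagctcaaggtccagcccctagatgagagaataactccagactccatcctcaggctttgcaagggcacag
The Olig2 window held 25 CG dinucleotides, more than 81.6% of the 32851 promoters of the same length. The Enpp6 window held 4, more than 31.4% of them, and the other windows held 17 (Cspg4), 17 (Cnp) and 5 (Pdgfra). The homeodomain core TAATTA, a palindrome that LIM-homeodomain factors bind, was in 0 of the 5 windows and in 5.29% of all promoters. The letters ACAAT, part of the sites that SOX factors bind, were found on either strand once each in the windows of Olig2, Enpp6 and Cspg4, and 31% of all promoters hold them. These matches describe the letters of the windows and were not tested as binding sites.

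Among the 3 transcription factors of the lineage, Olig1 had the highest level per length. Divided by the length of all annotated exons (GENCODE M21), Olig1 stood at 126 and 120.1 CPM per kb in Emx1Cre controls and at 55.0 and 63.8 CPM per kb in NexCre controls, above all other members in all 8 libraries. Its neighbour Olig2 lies on the same strand of chromosome 16 (91225457 to 91228677, mm10), 41095 bp before Olig1 (91269772 to 91271933), and stood at 29.7 and 16.5 CPM per kb in Emx1Cre controls. Both encode basic helix-loop-helix factors that specify the lineage. In Emx1Cre controls Gpr17 (18.5 to 34.2 CPM per kb), Cnp (24.3 to 28.3) and Olig2 (16.5 to 29.7) followed Olig1, and their ranges overlapped. Pdgfra came next (17.1 to 17.6 CPM per kb), within the range of Olig2, and then Sox10 (13.3 to 14.1) and Mbp (12.8 to 13.6), which overlapped each other. Cspg4 (3.95 to 4.22 CPM per kb) and Enpp6 (0.745 to 1.05) were lowest and separate from the rest. In NexCre controls the level of Gpr17, which ranked 2 of 9 by mean in Emx1Cre controls, was 1.57 to 1.67 CPM per kb and ranked 7 of 9. Enpp6 was again lowest, at 0.0234 to 0.0728 CPM per kb, which is 6 to 15 reads.

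**Figure D1:**
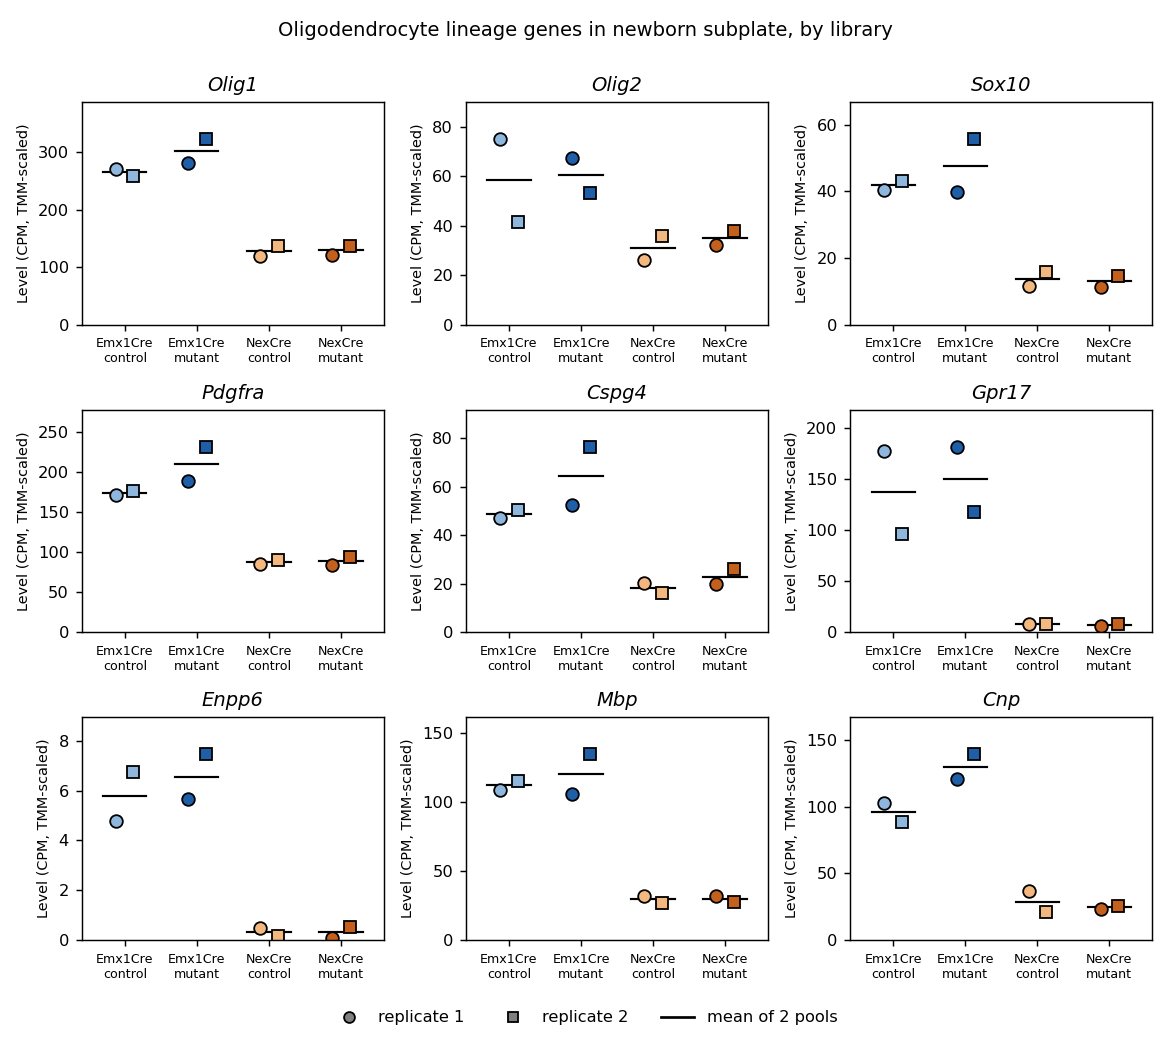
Level of each of the 9 genes (y axis, CPM scaled by TMM, linear from 0) in the 4 groups (x axis), with 1 point per library and a line at the mean of 2 pools. All 4 NexCre libraries lie below all 4 Emx1Cre libraries for each gene. Controls and mutants of a line overlap, except for Olig1, Pdgfra, Cspg4 and Cnp in the Emx1Cre line, where both mutants lie above both controls. Gpr17 stands at 96.3 to 182 CPM in the Emx1Cre line and at 6.18 to 8.68 CPM in the NexCre line.

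Setting Emx1Cre mutants against their own controls asks whether the lineage changes when Lhx2 is removed from cortical progenitors. None of the 9 genes passed the threshold (adjusted p under 0.05 by the quasi-likelihood test of edgeR, Benjamini-Hochberg over all 22820 genes tested). The background was 0.0789% of all genes called by that rule. Nor did any of the 9 have an unadjusted p under 0.05, which 7.59% of all genes had, and DESeq2 called 0 of the 9. All 9 log2 fold changes were above 0, as were those of 10465 of the 22820 genes tested, with a median log2 fold change of 0.19 against 0. With any 1 of the Emx1Cre libraries left out, 6 to 8 of the 9 were above 0. Several of the 9 can come from the same cells, so they are not independent measurements.

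Olig1 measured 272 and 259.7 CPM in the 2 Emx1Cre controls against 282 and 323 CPM in the 2 mutants. Both mutants lay above both controls, and the log2 fold change was 0.19 ± 0.15 (SE), with a 95% interval of 0.909- to 1.42-fold. Without Emx1Cre mutant 2 it was 0.087. Olig2 measured 75.2 and 41.6 CPM in the 2 controls against 67.5 and 53.5 CPM in the 2 mutants. Here the mutants lay between the controls, and the log2 fold change was 0.05 ± 0.27. Sox10, the HMG-box factor that drives myelin genes, measured 40.5 and 43.1 CPM in the 2 controls against 39.7 and 55.7 CPM in the 2 mutants, 1 below and 1 above the controls. Its log2 fold change was 0.19 ± 0.22.

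Pdgfra, the receptor for platelet-derived growth factor on precursors, measured 171 and 177 CPM in the 2 Emx1Cre controls against 189.8 and 232 CPM in the 2 mutants. The groups did not overlap, and the log2 fold change was 0.28 ± 0.14 (adjusted p = 0.721 in edgeR's quasi-likelihood test). Cspg4, the NG2 proteoglycan of precursors and pericytes, measured 47.1 and 50.3 CPM in the 2 controls against 52.6 and 76.5 CPM in the 2 mutants. Its groups did not overlap either, with a log2 fold change of 0.41 ± 0.22 (adjusted p = 0.744). Without Emx1Cre mutant 2 the log2 fold change of Pdgfra was 0.13 and that of Cspg4 was 0.11.

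Gpr17, a G protein-coupled receptor that committed precursors carry before they myelinate, measured 177 and 96.3 CPM in the 2 Emx1Cre controls against 182 and 118 CPM in the 2 mutants. The groups overlapped, and the log2 fold change was 0.13 ± 0.28. Enpp6, a choline phosphodiesterase of newly formed oligodendrocytes, measured 4.78 and 6.76 CPM in the 2 controls against 5.66 and 7.45 CPM in the 2 mutants, which is 250 to 319 reads per library. Its log2 fold change was 0.19 ± 0.55, with a 95% interval of 0.483- to 2.68-fold, the widest of the 9.

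Mbp encodes myelin basic protein, and its locus also gives longer golli transcripts that neurons express, which counts per gene do not separate. It measured 109 and 115 CPM in the 2 Emx1Cre controls against 106 and 134 CPM in the 2 mutants, with a log2 fold change of 0.10 ± 0.16. Cnp, the cyclic nucleotide phosphodiesterase of myelin, measured 103 and 88.3 CPM in the 2 controls against 121 and 139 CPM in the 2 mutants. The groups did not overlap, and the log2 fold change of 0.44 ± 0.23 was the highest of the 9 (95% interval 0.956- to 1.93-fold, adjusted p = 0.719 in edgeR's quasi-likelihood test). Cnp overlaps Dnajc7, on the other strand, which stood at 109 to 162 CPM in the 8 libraries. Since the strand setting of the counting is not given, reads of the overlap cannot be assigned to either gene with certainty. Gpr17 likewise overlaps Lims2 on the other strand (0.552 to 14.4 CPM), and Mbp overlaps the processed pseudogene Rpl21-ps8 (2.87 to 33.6 CPM).

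For 4 of the 9 genes (Olig1, Pdgfra, Cspg4 and Cnp) both Emx1Cre mutants lay above both controls, and for 0 of 9 below. Over all genes tested 15.1% were higher without overlap and 15.2% lower. For 7 of the 9 the highest of the 4 Emx1Cre libraries was mutant 2, the exceptions being Olig2 (control 1) and Gpr17 (mutant 1). The share of all genes that were highest in mutant 2 was not counted, so this is not shown to be particular to the 9. Without Emx1Cre mutant 2, 6 of the 9 were above 0 and the median log2 fold change was 0.11, and without mutant 1 it was 0.37. Markers of other cells also differed between these libraries. The 9 meningeal and fibroblast markers, cells that also carry Pdgfra, had sums of 22.6 and 17.8 CPM in the 2 controls against 46.1 CPM for mutant 1 and 176 CPM for mutant 2, with Aldh1a2 and Slc6a13 at 0 reads in control 2. The 9 striatal markers had sums of 182 and 197 CPM in the 2 controls against 167 CPM for mutant 1 and 473 CPM for mutant 2, with none at 0. The 8 pericyte markers had sums of 159.7 and 145 CPM in the 2 controls against 250.5 and 197 CPM in the 2 mutants, highest in mutant 1, with none at 0. The 8 astrocyte markers, of which Sparcl1 was called, had sums of 1729 and 1674 CPM in the 2 controls against 4136 and 3530 CPM in the 2 mutants, also highest in mutant 1. The 9 interneuron markers had sums of 415 to 525 CPM in the controls and mutant 1 and of 843 CPM in mutant 2, and the 6 microglial markers of 69.8 to 95.3 CPM and 137 CPM, with none at 0. The subplate neuron markers went the other way, with lower sums in both mutants than in both controls, as given above. Of these 6 markers 4 were lower in the mutants and 2 higher (median log2 fold change −0.81), and 0 were called. The part of all these cells in the levels of the lineage genes was not tested. In tissue samples, fewer cells of a type and less RNA per cell cannot be told apart.

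**Figure D2:**
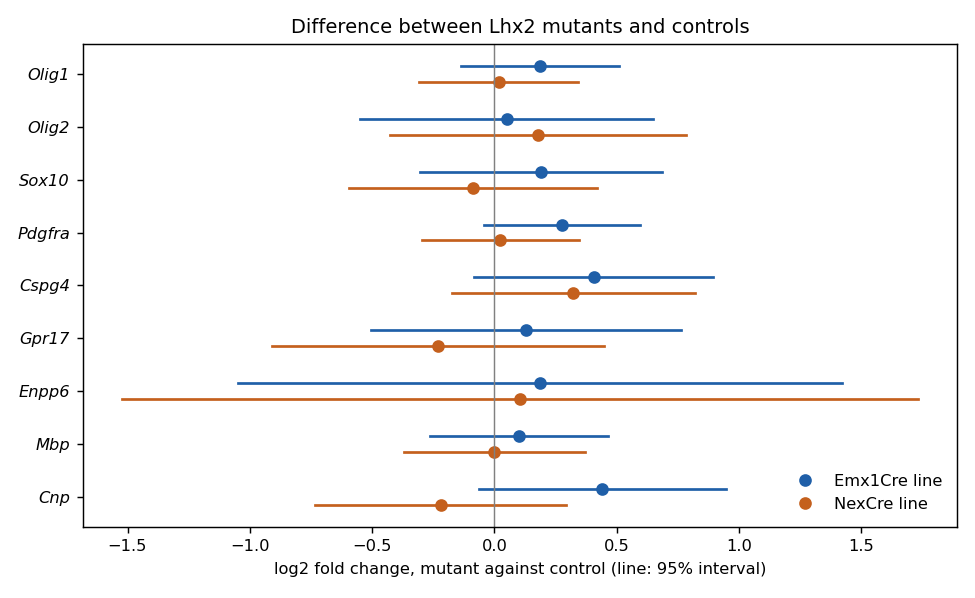
Log2 fold change of each of the 9 genes, mutants against controls (x axis), in the Emx1Cre line and the NexCre line, with lines for the 95% interval from edgeR's fit to 8 libraries. All 18 intervals include 0. The intervals of Enpp6, the gene with the fewest reads, are the widest.

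The comparison of NexCre mutants with their controls asks the same when Lhx2 is removed from postmitotic excitatory neurons. None of the 9 genes was called by edgeR's quasi-likelihood test, where 0.0307% of all genes were, or by DESeq2, and none had an unadjusted p under 0.05, which 3.96% of all genes had. The log2 fold changes were above 0 for 6 of the 9 and for 11550 of the 22820 genes tested, with a median log2 fold change of 0.02 against 0.0038. For 0 of the 9 genes did the groups separate, where 35.8% of all genes separated in either direction.

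Olig1 measured 119 and 138 CPM in the 2 NexCre controls against 122 and 138 CPM in the 2 mutants. With a log2 fold change of 0.02 ± 0.15 its 95% interval was 0.808- to 1.27-fold, and that of Pdgfra, at 85.7 and 90.4 CPM in controls and 84.7 and 94.5 CPM in mutants, was 0.815- to 1.27-fold. Both Olig1 mutants lay within the range of the controls, while the Pdgfra mutants lay on either side of it. Mbp measured 31.9 and 27.2 CPM in the 2 controls against 31.7 and 27.4 CPM in the 2 mutants, with a 95% interval of 0.774- to 1.29-fold. Sox10 measured 11.7 and 15.9 CPM in the 2 controls against 11.5 and 14.5 CPM in the 2 mutants, a log2 fold change of −0.09 ± 0.23. These genes had mutant and control libraries that overlapped.

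Olig2 measured 26.2 and 35.8 CPM in the 2 NexCre controls against 32.4 and 37.8 CPM in the 2 mutants, and its log2 fold change was 0.18 ± 0.27. Cspg4 measured 20.4 and 16.2 CPM in the 2 controls against 19.8 and 26.0 CPM in the 2 mutants, with the highest value of the 9 in this line, 0.32 ± 0.22. Cnp stood at 36.5 CPM in control 1 and at 21.1, 23.6 and 25.7 CPM in control 2 and the mutants. Its log2 fold change was −0.22 ± 0.23 and, without control 1, 0.23. NexCre control 1 was also the library in which 7 thalamic markers summed to 350 CPM, against 97.2 to 107.5 CPM in the other NexCre libraries. The 6 choroid plexus markers summed to 377 CPM in NexCre control 1 and 2055 CPM in NexCre mutant 1, against 5.99 and 22.9 CPM in control 2 and mutant 2. Whether either bears on Cnp was not tested.

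Gpr17 and Enpp6 were both under 10 CPM in this line. Gpr17 measured 8.68 and 8.14 CPM in the 2 NexCre controls against 6.18 and 8.15 CPM in the 2 mutants, with a log2 fold change of −0.23 ± 0.30. Enpp6 had 15 and 6 reads in controls and 4 and 22 reads in mutants, and its 95% interval ran from 0.349- to 3.32-fold.

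The effects in the 2 lines were compared with each other in the same fit. None of the 9 genes was called for a difference of effects in edgeR's quasi-likelihood test or by DESeq2, where edgeR called 0.00438% of all genes. None had an unadjusted p under 0.05, which 5.44% of all genes had. Cnp had the lowest unadjusted p, 0.0684 (adjusted p = 0.935 in edgeR's quasi-likelihood test), with a log2 difference, NexCre minus Emx1Cre, of −0.66 ± 0.32. Without NexCre control 1 this was −0.21 and without NexCre control 2 −1.002. For Olig1 the 95% interval of the difference was 0.647- to 1.22-fold and for Pdgfra 0.614- to 1.15-fold.

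The 9 genes were lower in the NexCre line in every library. NexCre controls were set against Emx1Cre controls in the same fit, a comparison added after the data were seen. By edgeR's quasi-likelihood test all 9 were lower in NexCre controls, with adjusted p-values from 2.97e-05 to 0.021, where 19.3% of all genes were called lower and 26.6% higher. The median log2 fold change of the 9 was −1.60, against 0.17 over all genes tested. For all 9 genes the 4 NexCre libraries lay below the 4 Emx1Cre libraries, as they did for 24.4% of all genes. Markers of other cells differed between the controls as well. Of the 8 astrocyte markers 4 were called lower and 0 higher (median log2 fold change −0.95). Of the 6 microglial markers 3 were called lower and 0 higher (median −0.74). Of the 9 meningeal and fibroblast markers 0 were called lower and 7 higher (median 2.14). The lines also differ in small RNA and histone content and in subplate markers, as given above, and the line cannot be told apart from how and when its libraries were made.

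The size of this difference varied between the genes. Among the genes of precursors, Olig2 had a log2 fold change of −0.91 ± 0.27, Pdgfra of −0.98 ± 0.14, Olig1 of −1.05 ± 0.15 and Cspg4 of −1.41 ± 0.22. Sox10 had −1.60 ± 0.23. The myelin genes Cnp and Mbp had −1.73 ± 0.23 and −1.92 ± 0.17. Gpr17 and Enpp6, genes of committed and newly formed cells, had −4.03 ± 0.33 and −4.25 ± 0.68, which is 0.0614-fold and 0.0526-fold. The intervals of these 2 lay below those of Olig1, Olig2, Pdgfra, Cspg4, Sox10, Cnp and Mbp. The call for Olig2 was lost without Emx1Cre control 1, which gave −0.43 (adjusted p = 0.2), and without NexCre control 1, which gave −0.71 (adjusted p = 0.13), over alternatives that gave adjusted p-values of 3.08e-05 to 0.2.

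**Figure D3:**
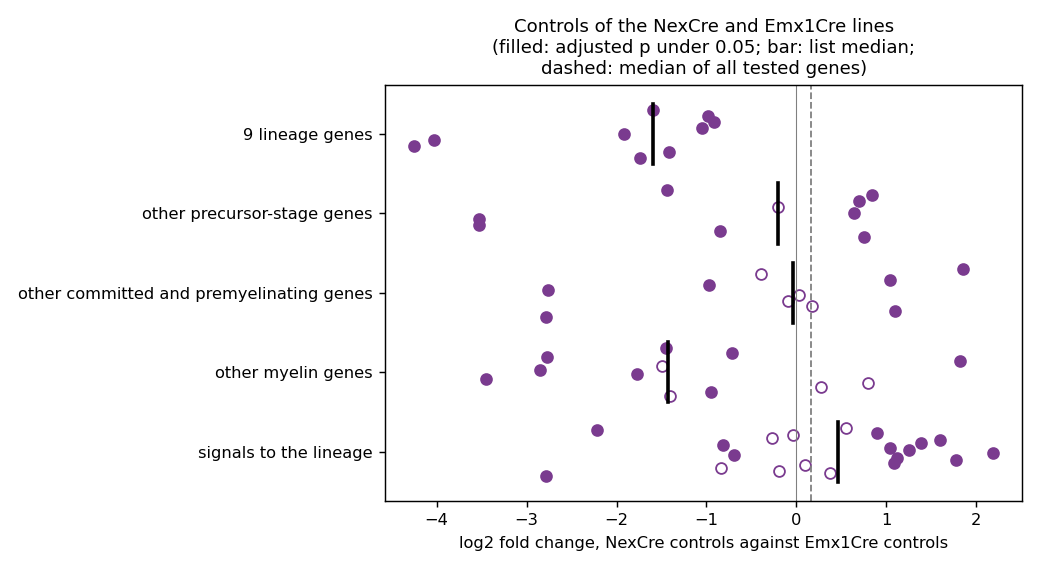
Log2 fold change of NexCre controls against Emx1Cre controls (x axis) for the 9 lineage genes and 4 further lists (rows), with 1 point per gene, filled where the adjusted p was under 0.05. The median of the 9 genes (bar) is −1.60. The list medians are −0.20 for other precursor-stage genes, −0.03 for committed and premyelinating genes, −1.43 for other myelin genes and 0.46 for signals, and the median of all genes tested (dashed line) is 0.17.

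Reads of each gene were also taken per 100 reads of Olig1, a ratio free of the scaling of libraries. As given above, meningeal cells also carry Pdgfra, pericytes Cspg4 and neurons some Mbp transcripts, and Cnp overlaps Dnajc7. The part of these in the ratios was not tested. Pdgfra was nearly level, at 63.0, 68.0, 67.4 and 71.8 reads per 100 Olig1 reads in Emx1Cre control 1, control 2, mutant 1 and mutant 2, and at 72.1, 65.6, 69.4 and 68.6 in the NexCre libraries in the same order. Pdgfra and Olig1 thus kept nearly the same ratio in all 8 libraries, and the share of all genes that did so was not counted. Gpr17 gave 65.2, 37.1, 64.5 and 36.4 reads per 100 Olig1 reads in the Emx1Cre libraries and 7.31, 5.91, 5.07 and 5.91 in the NexCre libraries. Enpp6 gave 1.76 to 2.60 and 0.0862 to 0.393, Mbp 37.5 to 44.3 and 19.7 to 26.8, Cnp 34.0 to 43.0 and 15.3 to 30.7, and Sox10 14.1 to 17.2 and 9.40 to 11.5. For these 5 genes every NexCre library lay below every Emx1Cre library, as for 3.83% of all genes tested on this scale, while 66.7% lay above, Olig1 itself being lower in the NexCre line. The ranges overlapped for Pdgfra, Cspg4 (17.3 to 23.7 and 11.8 to 18.9) and Olig2 (16.0 to 27.6 and 22.0 to 27.4).

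**Figure D4:**
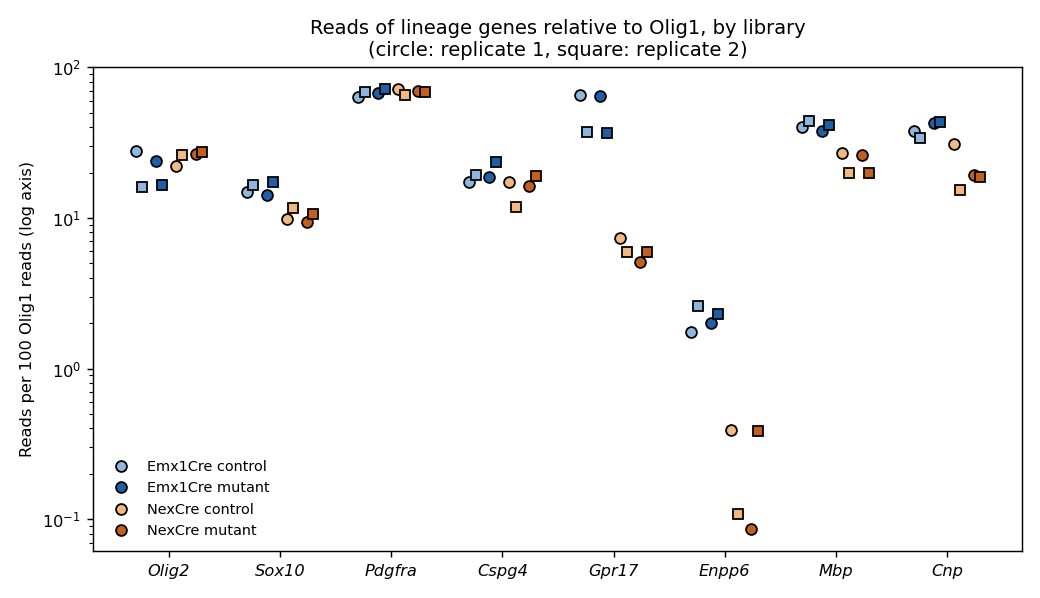
Reads of 8 lineage genes per 100 Olig1 reads (y axis, log axis) in each library, by gene (x axis) and group (colour), with circles for replicate 1 and squares for replicate 2. Pdgfra lies between 63.0 and 72.1 in all 8 libraries, while Gpr17 lies at 36.4 to 65.2 in the Emx1Cre line and at 5.07 to 7.31 in the NexCre line.

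Within the Emx1Cre line, both replicate 1 libraries lay above both replicate 2 libraries for Olig2 and Gpr17, a split seen once the values were known. For Sox10, Enpp6 and Mbp both lay below. Same-numbered libraries of this line deviated together over all genes tested (correlation 0.323). The share of all genes that split by replicate number was not counted. Olig2 in replicate 1 was 1.81 times that of replicate 2 in controls and 1.26 times in mutants, and Gpr17 was 1.84 and 1.54 times. For Olig1 these ratios were 1.05 and 0.871 and for Pdgfra 0.97 and 0.818. Without Emx1Cre control 2 the mutant effect on Olig2 was −0.32 and on Gpr17 −0.25, and without control 1 they were 0.55 and 0.64, on the log2 scale. The libraries of replicate 1 held 64.4 and 56.9 M reads with 0.0557% and 0.0587% small RNA, and those of replicate 2 held 40.8 and 42.6 M reads with 0.441% and 0.576%. The part of this split in the levels of Olig2 and Gpr17 was not tested. In the NexCre line the ratios were 0.731 and 0.857 for Olig2 and 1.07 and 0.758 for Gpr17.

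Further genes of the lineage were read from lists by stage. Of 9 other precursor-stage genes tested (of 11 listed), 0 were called in either mutant comparison by edgeR. At an unadjusted p under 0.05, which 7.59% of all genes had in Emx1Cre and 3.96% in NexCre mutants, there was 1 in Emx1Cre mutants, the receptor phosphatase Ptprz1, which radial glia also express, with a log2 fold change of 0.44 ± 0.17. In NexCre mutants there were 2, the sialidase Neu4 (−2.46 ± 0.61) and Lhfpl3 (−0.48 ± 0.18). Neu4 measured 0.373 and 0.474 CPM in the 2 NexCre controls against 0.0263 and 0.121 CPM in the 2 mutants, while the Emx1Cre libraries had 4.38 to 5.54 CPM. Its groups did not overlap in the NexCre line, at very low levels, where 35.8% of all genes separated in either direction.

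Of 10 committed and premyelinating genes 0 were called in either line. Tns3, a tensin of differentiating cells, measured 65.8 and 57.7 CPM in the 2 Emx1Cre controls against 102 and 98.2 CPM in the 2 mutants (log2 fold change 0.70 ± 0.17, adjusted p = 0.231 in edgeR's quasi-likelihood test). Itpr2, a receptor for inositol trisphosphate that astrocytes also express, stood at 16.9 and 19.0 and at 30.1 and 27.8 CPM (0.69 ± 0.19, adjusted p = 0.303). Both genes lay higher in both Emx1Cre mutants than in both controls, as did 15.1% of all genes tested. They are named for having the 2 lowest p-values of their list in that comparison, which favours such separation. In the NexCre line their log2 fold changes were 0.24 ± 0.17 and −0.06 ± 0.19, and the lowest p-values belonged to Gpr37 (−0.64 ± 0.28) and Cemip2 (0.35 ± 0.16), listed under its older name Tmem2.

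Of 12 other myelin genes tested (of 14) 0 were called in either line, with medians of 0.30 in Emx1Cre and −0.19 in NexCre mutants on the log2 scale. Ermn, a cytoskeletal protein of myelinating cells, was below control level in both lines, at −1.46 ± 0.50 (adjusted p = 0.501) and −1.39 ± 0.49 (adjusted p = 1) in edgeR's quasi-likelihood test. It had 2.79 and 2.13 CPM in Emx1Cre controls, 0.709 and 1.09 CPM in Emx1Cre mutants, 4.67 and 3.94 CPM in NexCre controls and 0.894 and 2.38 CPM in NexCre mutants. Both mutants lay below both controls in each line, and the gene was not called. In the Emx1Cre line 15.2% of all genes tested lay lower without overlap. The tetraspanin Tspan2 was at 0.49 ± 0.18 in Emx1Cre and −0.19 ± 0.18 in NexCre mutants, and the sulfotransferase Gal3st1 at 0.25 ± 0.33 and −0.78 ± 0.35. Opalin, a late marker of mature oligodendrocytes, had 0 reads in all 8 libraries.

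Between the controls of the lines, where 19.3% of all genes were called lower and 26.6% higher in NexCre controls, the lists had calls in both directions. Of the 12 other myelin genes 7 were called lower and 1, Mog of the outer myelin surface (1.82 ± 0.31), higher in NexCre controls. Of the 10 committed and premyelinating genes 3 were called lower and 3 higher, with a median log2 fold change of −0.03. Called lower were Bcas1 (−2.79 ± 0.31), Myrf (−2.76 ± 0.58) and Sirt2 (−0.97 ± 0.13). Called higher were Zfp536 (1.85 ± 0.33), Cemip2 (1.10 ± 0.16) and Sox6 (1.05 ± 0.18). The 10 genes summed to 697 to 750.1 CPM in the NexCre libraries against 641 to 756 CPM in the Emx1Cre libraries. Fyn alone gave 275 to 342 CPM of these sums. Of the 9 precursor-stage genes 4 were called lower, among them Neu4 at −3.53 ± 0.47, and 4 higher, among them Ptprz1 at 0.65 ± 0.17. The genes of the latter group include several that radial glia express.

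Signals that act on the lineage showed 0 called genes of 20 in either mutant comparison. Pdgfa, the ligand of Pdgfra, had 25.8 and 22.8 CPM in Emx1Cre controls and 27.2 and 19.2 CPM in mutants, and 18.1 and 22.1 against 16.6 and 15.01 CPM in the NexCre line. Its log2 fold changes were −0.06 ± 0.22 and −0.35 ± 0.22. Id2, an inhibitor of helix-loop-helix factors that cortical neurons also express, measured 244 and 322 CPM in the 2 Emx1Cre controls against 149 and 167 CPM in the 2 mutants (−0.84 ± 0.19, adjusted p = 0.202 in edgeR's quasi-likelihood test). In the NexCre line it measured 153 and 197 CPM in the 2 controls against 253 and 199 CPM in the 2 mutants (0.37 ± 0.19). Bmp7, a bone morphogenetic protein, was at 0.89 ± 0.26 in Emx1Cre mutants (adjusted p = 0.372) and at 0.51 ± 0.26 in NexCre mutants. In NexCre mutants the chemokine Cxcl12 (0.65 ± 0.22) and the receptor Notch1 (0.47 ± 0.17) had the lowest p-values, each with an adjusted p of 1. In Emx1Cre mutants they were at 0.34 ± 0.22 and 0.16 ± 0.17.

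Likeness to the mean of Olig1, Olig2 and Sox10 was described over the 8 libraries, centred within each line, among 15770 genes of at least 1 CPM. The genes most like it were Mutyh (Pearson r = 0.981), a DNA glycosylase, Gm17201 (0.968), Amt (0.949), of glycine breakdown, 9430038I01Rik (0.943) and Phf19 (0.937), a polycomb-associated protein. Among the other members r was 0.584 for Pdgfra, 0.369 for Gpr17, 0.264 for Cspg4, −0.0776 for Enpp6, −0.0796 for Cnp and −0.306 for Mbp. The 3 reference genes did not share one profile. Between them r was 0.887 for Olig1 with Sox10, 0.36 for Olig1 with Olig2 and 0.0398 for Olig2 with Sox10. Some of the genes most like their mean were at low levels, Mutyh at 0.973 to 1.77 CPM and Phf19 at 1.22 to 4.63 CPM. The libraries share the differences in depth and small RNA given above, and with 8 libraries and many genes high values of r are common.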

How the data were processed

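The authors deposited counts of reads, 1 table per line with a gene symbol in each row, and they were used unchanged. HISAT2, SAMtools, DESeq2 and build mm10 are named per the submitters' processing notes. Which versions, counter, annotation and strand setting were used is not given in the sources used here. Reads were paired and 100 bp long, per the labels. Symbols that a spreadsheet had turned into dates (26 and 24 rows, 0.239% to 0.269% of reads) were left out when the tables were joined. GENCODE M21, which gave positions and exon lengths, matched 97% of symbols.

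The filter filterByExpr (minimum count 10, minimum total 15) left 22820 genes. After TMM scaling, all 8 libraries entered a single quasi-likelihood fit of edgeR 4.0.16 under R 4.3.3, with group as its one term, prior count 0.125, 4 residual and 5.95 prior degrees of freedom. Tests were two-sided, adjusted by Benjamini-Hochberg over the tested genes at a threshold of 0.05, and the script was tested on simulated data. The smallest exact permutation p for 2 libraries against 2 is 0.333, so p-values rest on a spread shared across genes (biological coefficient of variation 26.2%). They measure the spread between pools, and replicates differed beyond counting noise (chi-square over degrees of freedom 23.1 to 80.2). Totals of 31.2 to 64.4 M reads set the counting precision.

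The members, lists and tests were chosen with earlier results of these data known. Besides the 9 members and Lhx2, the text names for each lineage or signal list the genes called, or else those with the 2 lowest p-values per mutant comparison, with Pdgfa. Of the genes so named, 1 is not reported here. The text also names the 5 genes most like Olig1, Olig2 and Sox10 by log2 of CPM plus 0.5. Bcas1, Myrf, Sirt2, Sox6, Zfp536, Fyn, Opalin, Mog, Sparcl1, Aldh1a2, Slc6a13, Dnajc7, Lims2 and Rpl21-ps8 lie outside that rule, picked once their values were known. Alternatives were RLE and upper-quartile scaling, no filter, a stricter filter (1 CPM in 2 libraries, mean count 20), DESeq2 1.42.0, each line alone, a replicate block, removal of small RNA, histone and haemoglobin genes, and leaving out each library.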

Additional observations from a re-analysis of the deposited data

Results flagged for a closer look

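For 3 of 26 genes (the members, Lhx2 and genes drawn from the lists by the naming rule) every Emx1Cre mutant lay on the opposite side of its controls from every NexCre mutant. All 3 came from the lists, where the rule picked them by lowest p in a mutant comparison. That favours separated groups, so the 4.06% of all genes tested that lay so is not a like background for the 26. Of the 51 tested genes of the lineage and signal lists, 4 lay so (7.84%), these 3 among them. None of the differences between the effects passed edgeR's quasi-likelihood test. Lhfpl3, of the precursor-stage list, had an effect lower in the NexCre line than in the Emx1Cre line by −0.83 on the log2 scale (adjusted p = 0.677), with 33.3 and 31.6 CPM in Emx1Cre controls against 37.2 and 45.6 CPM in mutants, and 19.3 and 16.9 CPM in NexCre controls against 11.9 and 14.1 CPM in mutants. Tspan2, of the myelin list, had a difference of −0.68 (adjusted p = 0.822), and Id2, of the signals, one of 1.21 (adjusted p = 0.54), NexCre minus Emx1Cre in edgeR's quasi-likelihood test.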

How the results depend on the processing

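The members called stayed at 0 of 9 in both mutant comparisons and in the difference of effects under every alternative run. Between the controls of the lines 9 of 9 were called under each alternative except without Emx1Cre control 1 or NexCre control 1, where 8 were, and the direction of all 9 held under RLE, upper-quartile and DESeq2 scaling, where the median of all genes moved from 0.17 to between 0.21 and 0.23 on the log2 scale. Counts over all genes depended on the method. With no low-count filter 585 genes were called in the Emx1Cre comparison, 251 in the NexCre comparison and 408 for the difference, against 18, 7 and 1, and DESeq2 called 300, 79 and 99. Each line fitted alone gave 0 by edgeR (1181 at an unadjusted p under 0.05) and 17. Removal of small RNA, histone and haemoglobin genes gave 0 for the difference by edgeR (1223 at an unadjusted p under 0.05). With 1 library left out, where the lone library is assumed to vary like the other groups, these counts ran from 0 (without NexCre mutant 2, by edgeR, 1502 at an unadjusted p under 0.05) to 28, 1 to 43 and 1 to 31. With the replicate block 82, 22 and 5 genes were called. The labels give the same numbers to both groups of a line, and same-numbered libraries deviated together (correlation 0.323 and 0.151). In the Emx1Cre line they were also alike in depth and small RNA content, as given above. With 2 pairs per line the number was left out of the main fit. Under the block the effect in Emx1Cre mutants was 0.10 ± 0.16 for Olig2 and 0.16 ± 0.14 for Gpr17 on the log2 scale, and neither was called.

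With no low-count filter Mbp in NexCre mutants turned from 0.0003 to −0.0046. Lhx2 in Emx1Cre mutants passed the threshold with no filter (−0.76) and with DESeq2 (−0.77). Leaving out single libraries turned the sign of several uncalled log2 effects. In the Emx1Cre line Olig2 ran from −0.32 to 0.55, Sox10 from −0.068 to 0.41, Gpr17 from −0.25 to 0.64, Enpp6 from −0.041 to 0.44 and Mbp from −0.078 to 0.26. In the NexCre line Olig1 ran from −0.088 to 0.13, Olig2 from −0.034 to 0.42, Sox10 from −0.29 to 0.15, Pdgfra from −0.056 to 0.088, Enpp6 from −1.49 to 1.09, Mbp from −0.12 to 0.12 and Cnp from −0.57 to 0.23. For the difference of effects Olig2 ran from −0.37 to 0.50, Cspg4 from −0.32 to 0.21, Gpr17 from −0.87 to 0.022, Enpp6 from −1.67 to 0.91 and Mbp from −0.26 to 0.076. The cause was not tested. Enpp6 had 4 to 22 reads per NexCre library.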
